A study of Mus musculus with 17 samples.

Results

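Pax6, Emx1, Emx2, Lhx2, Nr2f1, Nr2f2, Nr2e1, Dmrta2 and Sall1 encode transcription factors that pattern the pallium, the dorsal part of the telencephalon from which the cerebral cortex forms. Their levels were read from every probe set of the deposited array table that carries the symbol of 1 of these 9 genes alone. That gave 21 probe sets of 34945 with a single gene symbol, for 9 of 18193 genes: 5 probe sets for Pax6, 6 for Nr2f2, 2 each for Emx1, Nr2e1 and Sall1, and 1 each for Emx2, Lhx2, Nr2f1 and Dmrta2. Each of the 17 Affymetrix mouse arrays was hybridised with total RNA from sorted cortical cells of embryos of the hGFAP-eGFP mouse. The human GFAP promoter drives enhanced green fluorescent protein (GFP) in this line, and by its title the series set radial glial subtypes against each other. At embryonic day 14 (E14) the cells were GFP-high (n = 4) or GFP-low (n = 3) and also selected for Prominin, an apical membrane protein, or GFP-high (n = 3) or GFP-low (n = 3) with no Prominin gate named, called ungated below. At embryonic day 18 (E18) they were GFP-positive and Prominin-selected (n = 4). The transgene is shared by all groups, and the sort rests on the GFP signal of a cell, not on the mouse Gfap gene. How active the promoter was in a sorted cell was not measured.

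In the dorsal telencephalon these factors act in progenitors lining the ventricle, the radial glia, which divide and give rise to neurons. Lhx2 is a LIM homeodomain factor that gives the neuroepithelium its cortical identity, and Pax6, Emx1 and Emx2 are homeodomain factors, of which Pax6 and Emx2 form opposing gradients over the cortical sheet. Dmrta2 is a DM-domain factor of the medial pallium, Nr2e1 (also called Tlx) is an orphan nuclear receptor of neural stem cells, and Sall1 is a zinc-finger factor. Nr2f1 and Nr2f2 (COUP-TFI and COUP-TFII) are orphan nuclear receptors, the first a regulator of cortical areas that also acts in neurons, the second known from caudal telencephalon and interneurons.

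Levels are log2 of the deposited intensity plus 16, normalised by quantiles, and are given array by array in replicate order or as a group's mean ± SD. Differences are on the same log2 scale with their standard error, and folds are those differences raised from log2, so they understate the change of dim probe sets. The median level of the tested probe sets was 5.85: 15 of the 21 lay above it on average and 6 below, and no fold is given where the lower group lay under it. A probe set was called where limma's adjusted p was under 0.05 over all 34945. Whether replicates are separate litters is not in the labels, so each p-value rests on a spread between arrays that may be technical, and precision is limited by how few arrays there are. In sorted bulk RNA, fewer cells of a type and less RNA per cell cannot be told apart.

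The groups also differed in their sorts and their RNA controls. The labels name a MessageAmp labelling kit for 12 arrays, which are the 11 Prominin-selected ones and replicate 1 of ungated GFP-high cells. The other 5, all ungated, have an Affymetrix kit. For Gapdh, the signal of the 3′ control minus that of the 5′ one was −0.25 to 0.18 (log2) on ungated arrays, −0.21 to 1.00 at E18 and 0.54 to 2.29 on E14 gated arrays. All 9 radial glia genes listed had means above the median level in every group. Their summed signal was highest in ungated GFP-high cells, at 26950 to 36470, and lowest in ungated GFP-low cells, at 5850 to 8158. The summed signal of 9 genes of postmitotic neurons ran the other way in these groups, at 6698 to 7048 and 32480 to 50460. In all groups, 0 of 8 marker genes of meninges and pericytes had a mean above the median level of the probe sets, and at most 2 of 8 of endothelium and 1 of 8 of microglia did.

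Pax6, whose probe sets disagreed, is described one probe set at a time. The gene lies on chromosome 2 at chr2:105668896-105698410 in the RefSeq table for GRCm38.p6, where 2 of its start sites have a listed upstream window, 13567 bases apart. Because these probe sets differed so much from each other, the 250 bases before both starts are shown, on the plus strand from 5′ to 3′, at chr2:105668646-105668895 and chr2:105682213-105682462. Capitals mark matches to a CCAAT box (CCAAT) in the first and to an E-box (CANNTG) in the second, the only hits on both strands among 6 motifs searched.
Pax6 first start: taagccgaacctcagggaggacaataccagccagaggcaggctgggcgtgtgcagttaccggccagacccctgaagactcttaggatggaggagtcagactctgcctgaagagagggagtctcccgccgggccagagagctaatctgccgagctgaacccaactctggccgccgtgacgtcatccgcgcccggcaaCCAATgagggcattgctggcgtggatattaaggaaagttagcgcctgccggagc
Pax6 second start: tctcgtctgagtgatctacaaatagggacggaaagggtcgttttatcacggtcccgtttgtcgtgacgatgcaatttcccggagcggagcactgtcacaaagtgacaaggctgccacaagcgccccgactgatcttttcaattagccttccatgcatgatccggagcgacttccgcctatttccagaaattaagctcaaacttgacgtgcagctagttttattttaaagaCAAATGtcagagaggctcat
The same 6 motifs were searched in all 32851 windows of this table. CCAAT was in 5 of 14 windows of the 9 genes and 33.8% of all windows, and CANNTG in 6 of 14 and 66.2%. GGGCGG, the GC box, was in 6 of 14 and 32.7% of all. TATAAA (12.4% of all windows), TAATTA (4.84%) and AGGTCA (14%) were in 0 of the 14. The probe sets are not tied to a start here, since their positions on the gene were not analysed.

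Pax6 probe set 1419271_at, the brightest of its 5, separated the groups most clearly. It read 9.63, 9.63, 9.94 and 10.30 in E14 GFP-high Prominin-selected cells and 8.88, 9.08 and 9.12 in the GFP-low ones. In ungated cells it read 10.78, 10.86 and 11.05 with high GFP and 7.54, 7.47 and 8.47 with low GFP. At E18 it read 8.04, 8.14, 8.25 and 8.39. The order was therefore ungated GFP-high, gated GFP-high, gated GFP-low, E18 and ungated GFP-low cells, and of these neighbours only E18 and ungated GFP-low cells overlapped.

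Pax6 probe set 1452526_a_at followed a different course. It read 9.40, 9.08 and 9.41 in ungated GFP-high cells and 6.51, 5.94 and 6.80 in ungated GFP-low cells. The Prominin-selected arrays were dimmer still, and 1 of the 11 exceeded the lowest ungated GFP-low array. They read 5.34, 4.65, 5.84 and 6.03 with high GFP, 5.01, 4.24 and 4.22 with low GFP, and 5.67, 5.56, 5.81 and 5.48 at E18. Thus the gated groups, which 1419271_at placed near or above ungated GFP-low cells, had lower means than those cells here.

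Pax6 probe set 1425960_s_at was bright on the ungated GFP-high arrays alone, at 6.77, 6.77 and 6.90. It read 4.54, 4.24 and 5.05 in ungated GFP-low cells and 4.09 to 4.26 on all 11 Prominin-selected arrays, close to 4, the log2 of the added 16 alone. The other 2 Pax6 probe sets had means below the median level of 5.85 in every group: 1437816_at at 5.04 to 5.80 and 1456342_at at 4.44 to 5.26. Neighbouring groups in the order of means overlapped on both, and they were called in 0 of 7 comparisons.

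**Figure D1:**
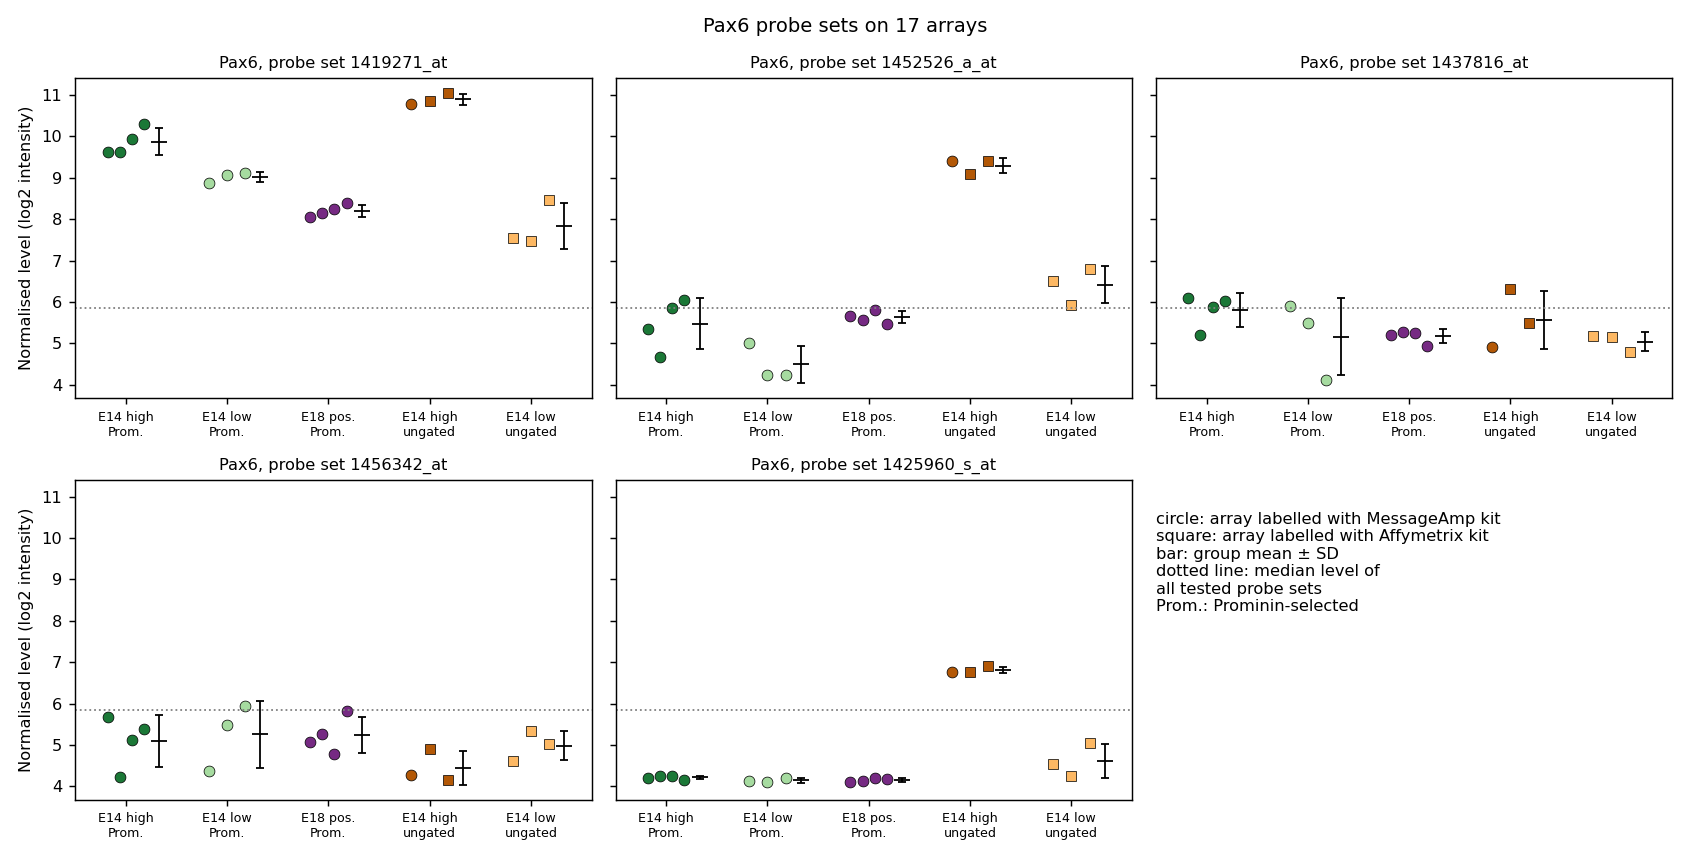
The normalised level (log2 intensity) of each of the 5 Pax6 probe sets is plotted for every array by group, circles for arrays labelled with the MessageAmp kit and squares for the Affymetrix kit, with the group mean ± SD as a bar and the median of all tested probe sets (5.85) as a dotted line. Probe set 1419271_at is above the line on all arrays, 1452526_a_at and 1425960_s_at are highest in ungated GFP-high cells (9.08 to 9.41 and 6.77 to 6.90), and the remaining 2 stay near or under it.

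The gap between the 2 Pax6 probe sets with the highest means moved between groups. On each array the level of 1452526_a_at minus that of 1419271_at was −4.98 to −4.10 in gated GFP-high cells, −4.90 to −3.87 in gated GFP-low cells and −2.91 to −2.38 at E18. It was −1.77 to −1.37 in ungated GFP-high and −1.67 to −1.03 in ungated GFP-low cells. The 3 ranges, E14 gated, E18 and ungated, did not overlap, and only this shift, not the size of the gap, is comparable between groups. Ungated GFP-high replicate 1, labelled with the kit of the Prominin-selected arrays, had 1452526_a_at at 9.40 and a Gapdh 3′ minus 5′ difference of −0.19, both within the range of the other ungated arrays. The actin control's 3′ minus 5′ difference was 0.89 to 1.79 on the E14 gated arrays, where the gap was widest, 0.69 to 1.61 at E18 and 0.37 to 0.73 on the ungated arrays. The part of either control's behaviour in the gap was not tested.

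Emx1, a homeodomain factor of dorsal progenitors and their neurons, held the same kind of disagreement. The gene lies at chr6:85187931-85204463. Its upstream window, chr6:85187681-85187930 on the plus strand, is shown with that of Nr2e1, chr10:42583591-42583840 on the minus strand. The reason is that the GFP-high minus GFP-low differences of their leading probe sets in ungated cells lay far apart. They were 0.43 for Emx1 1441777_at and 3.09 for Nr2e1 1434921_at. The other probe sets were at 1.23 (Emx1 1444216_at) and 2.81 (Nr2e1 1457289_at). Capitals mark GC boxes (GGGCGG or its complement, CCGCCC) and an E-box in Emx1, and an E-box in Nr2e1.
Emx1: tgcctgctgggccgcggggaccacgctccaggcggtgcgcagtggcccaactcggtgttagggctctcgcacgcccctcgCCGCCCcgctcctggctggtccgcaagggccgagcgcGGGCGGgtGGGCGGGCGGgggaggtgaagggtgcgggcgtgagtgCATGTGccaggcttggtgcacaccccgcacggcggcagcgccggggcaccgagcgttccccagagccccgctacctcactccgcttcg
Nr2e1: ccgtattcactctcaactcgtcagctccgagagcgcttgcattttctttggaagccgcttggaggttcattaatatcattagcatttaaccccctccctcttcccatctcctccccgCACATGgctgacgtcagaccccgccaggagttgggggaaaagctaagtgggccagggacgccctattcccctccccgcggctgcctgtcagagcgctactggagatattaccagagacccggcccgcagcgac
The Emx1 window had 30 CG pairs and 75.6% G and C, the Nr2e1 window 15 pairs and 58% G and C, against a median of 6 pairs and 52.4% over all windows. These are descriptions of sequence and were not tied to levels.

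Emx1 probe set 1441777_at read 9.88, 9.43, 9.50 and 9.50 in E14 gated GFP-high cells, 8.85, 9.19 and 9.35 in gated GFP-low cells, and 9.22, 8.64 and 9.01 with high GFP and 8.47, 8.42 and 8.69 with low GFP in ungated cells. At E18 it read 6.58, 8.05, 6.39 and 8.03. All 4 E18 arrays lay below all 13 E14 arrays, and they fell into pairs, replicates 2 and 4 low and replicates 3 and 5 less so. The same pairs differed in the Gapdh 3′ minus 5′ control, at −0.12 and −0.21 against 1.00 and 0.48, and the part of that in the Emx1 level was not tested.

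Emx1 probe set 1444216_at read 8.27, 8.04 and 8.48 in ungated GFP-high and 7.46, 6.63 and 7.01 in ungated GFP-low cells. On the 11 Prominin-selected arrays it read 4.24 to 5.42. This was the split seen for Pax6 1452526_a_at, and the gap between the Emx1 probe sets (1444216_at minus 1441777_at) was −5.29 to −3.76 on the E14 gated arrays, −3.81 to −1.36 at E18 and −1.79 to −0.53 on the ungated arrays.

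**Figure D2:**
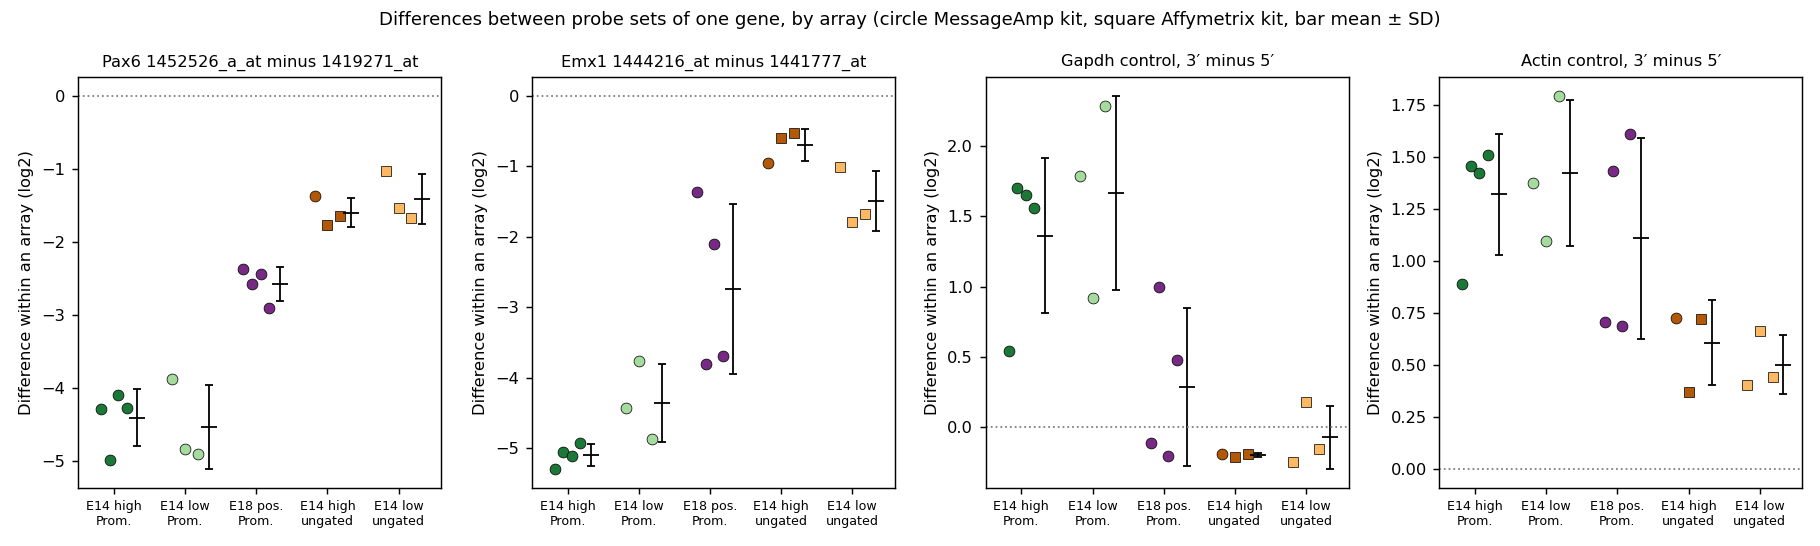
Differences within an array (log2) are plotted by group for the Pax6 and Emx1 probe set pairs and for the 3′ minus 5′ controls of Gapdh and actin, with the group mean ± SD as a bar. The Pax6 difference is lowest on the E14 Prominin-selected arrays (−4.98 to −3.87), apart from all others, whereas their Emx1 difference (−5.29 to −3.76) and Gapdh control difference (0.54 to 2.29) overlap those of E18 (−3.81 to −1.36 and −0.21 to 1.00), and ungated GFP-high replicate 1, the lone circle among the squares, sits with the other ungated arrays.

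The homeodomain genes Emx2 and Lhx2 were each measured by 1 probe set, and both were highest in ungated GFP-high cells. Emx2 (1456258_at, chr19:59458690-59465357) read 9.62, 8.84 and 9.24 in ungated GFP-high cells, above every other array, and 6.44, 6.31 and 6.93 in ungated GFP-low cells. The Prominin-selected arrays lay between, at 8.05 ± 0.25 (SD, n = 4) with high GFP, 7.68 ± 0.12 (SD, n = 3) with low GFP and 7.22 ± 0.31 (SD, n = 4) at E18, each overlapping the next, and E18 overlapping ungated GFP-low cells. Lhx2 (1418317_at, chr2:38339271-38369737) was bright on every array, at 9.95 to 11.89. Its means spanned 1.64, with ungated GFP-high cells highest and ungated GFP-low cells lowest, and the 3 gated groups in between overlapped each other. The gated GFP-low arrays also overlapped the ungated GFP-low ones.

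Nr2e1, the stem cell receptor (chr10:42561963-42583590), had its lowest mean at E18 on both probe sets. Probe set 1434921_at read 8.48, 8.50, 8.61 and 8.79 in gated GFP-high cells, 7.51, 7.41 and 8.06 in gated GFP-low cells, 10.44, 10.07 and 10.47 in ungated GFP-high cells, 7.03, 7.11 and 7.57 in ungated GFP-low cells, and 6.01, 6.24, 5.76 and 6.04 at E18. The E18 arrays lay below all 13 others. Probe set 1457289_at had gated GFP-high cells (8.31 ± 0.08, SD, n = 4) level with ungated GFP-high cells (8.32 ± 0.13, SD, n = 3), where 1434921_at had a gated minus ungated difference of −1.73. The ungated GFP-low arrays of 1457289_at spread widely, at 6.37, 4.22 and 5.95.

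Dmrta2 (1441107_at, chr4:109977989-109983691) was 10.90 ± 0.16 (SD, n = 4) in gated GFP-high cells, the lowest array at 10.66, and read 10.30, 11.34 and 10.61 in ungated GFP-high cells, which overlapped them. It read 10.21, 9.82 and 10.35 in gated GFP-low cells, 8.97, 9.26, 9.13 and 9.03 at E18 and 7.78, 7.22 and 9.25 in ungated GFP-low cells. Sall1 (chr8:89027242-89044162) was measured by 2 probe sets that placed the same groups highest, next and lowest: 1437983_at read 10.46, 10.10 and 10.13 in ungated GFP-high cells against 6.14 to 8.87 on all other arrays, and 1450489_at read 8.28, 8.19 and 8.30 against 4.59 to 6.68.

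Of the 2 COUP-TF genes, Nr2f1 was also highest in ungated GFP-high cells but differed in the order of the other groups. Nr2f2 had its highest mean in another group on each probe set. Nr2f1 (1418157_at, chr13:78188971-78198873) read 11.89, 11.81 and 12.04 in ungated GFP-high cells and 11.61, 11.48, 11.34 and 11.37 at E18, with gated E14 cells lowest at 10.14 to 11.11. E18 cells overlapped ungated GFP-low cells (10.89 to 11.71), and these the gated GFP-high ones. Nr2f2 (chr7:70351946-70366746) had probe sets above and below the median level of 5.85. Its leading probe set, 1416159_at, lay above it, between 6.90 and 8.07 on all 17 arrays, and 1431237_at below it, at 4.14 to 5.10. The group means of Nr2f2 spanned 0.39 to 1.40 over the 6 probe sets.

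**Figure D3:**
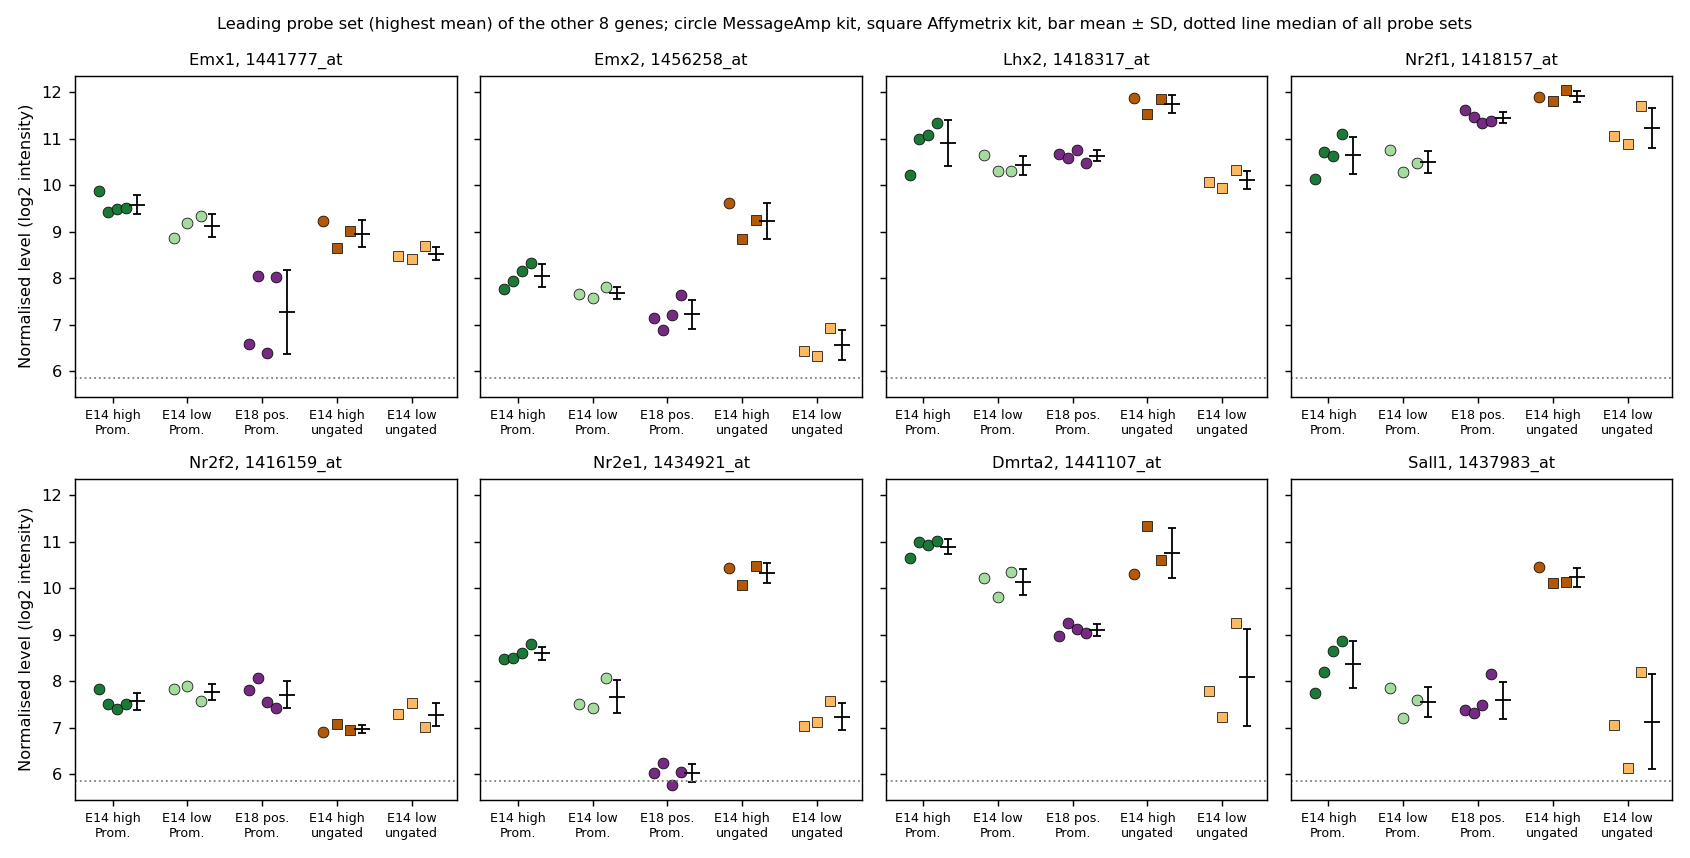
The normalised level (log2 intensity) of the brightest probe set of each of the other 8 genes is plotted for every array by group, with the group mean ± SD as a bar and the median of all tested probe sets (5.85) as a dotted line. Emx2, Lhx2, Nr2f1, Nr2e1 and Sall1 stand highest in ungated GFP-high cells, Emx1 and Nr2e1 lowest at E18, and Nr2f2 differs little between groups.

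The contrast of GFP-high with GFP-low cells asks what sets apart sorted cells of strong and weak GFP signal. Among Prominin-selected E14 cells it called 0 of the 21 probe sets, where 0.592% of all 34945 were called (0.132% higher, 0.461% lower). Of the 21, 9 had an unadjusted p under 0.05 (4022 of all), 15 were higher in GFP-high cells, and their median difference was 0.37 against −0.0001 over all. Nr2e1 1434921_at came nearest, at 0.93 ± 0.19 (1.91-fold, limma adjusted p = 0.0506) with groups that did not overlap. Pax6 1419271_at was at 0.85 ± 0.19 (1.80-fold, adjusted p = 0.0662) and Dmrta2 at 0.77 ± 0.17 (1.70-fold, adjusted p = 0.0679), also without overlap. Emx1 1441777_at was at 0.45 ± 0.38 (adjusted p = 0.721), Emx2 at 0.37 ± 0.20 (adjusted p = 0.532), Lhx2 at 0.48 ± 0.24 (adjusted p = 0.468) and Nr2f1 at 0.15 ± 0.21 (adjusted p = 0.864). The member lowest in GFP-high cells was Nr2f2 1416160_at, at −0.89 ± 0.26 (adjusted p = 0.174), and the Nr2f2 probe sets 1416158_at, 1416159_at and 1436475_at were at −0.61, −0.20 and −0.37. The other Nr2f2 probe sets, 1444229_at and 1431237_at, were at 0.11 and 0.27.

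The alternatives run here bear on those near misses. With 1 probe set a gene, which left 18193 tests, Pax6, Nr2e1 and Dmrta2 were called, and the count of called genes over all was 305. The Nr2e1 1434921_at call was gained in 6 of 9 alternatives and those of Pax6 1419271_at and Dmrta2 in 4 of 9, and all 3 were gained in 0 of 7 runs that left out 1 array. Beside this contrast, the summed signal of 9 postmitotic neuron genes was 8737 to 10610 in GFP-high and 17100 to 19230 in GFP-low cells, with 4 of 9 called lower in GFP-high cells, and that of 8 Cajal-Retzius genes was 669.7 to 857.8 and 3607 to 5155, with 5 of 8 called lower. Their part in the members' values was not tested.

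Without the Prominin gate, 7 of the 9 genes were higher in GFP-high cells on at least 1 probe set: Pax6, Emx1, Emx2, Lhx2, Nr2e1, Dmrta2 and Sall1, but neither COUP-TF gene. In all, this contrast called 11 of the 21 probe sets, all of them higher in GFP-high cells, where 5.66% of all were called higher and 11.7% in either direction. The median difference of the 21 was 1.23, against 0.0025 over all. Nr2e1 1434921_at was 8.52-fold higher (3.09 ± 0.23, adjusted p = 0.000855), Pax6 1419271_at 8.38-fold (3.07 ± 0.30, adjusted p = 0.00134) and Sall1 1437983_at 8.62-fold (3.11 ± 0.48, adjusted p = 0.00652). Pax6 1452526_a_at was 7.36-fold higher (2.88 ± 0.27, adjusted p = 0.00116), and Pax6 1425960_s_at was higher by 2.20 ± 0.25 on the log2 scale (adjusted p = 0.00203). So 3 of the 5 Pax6 probe sets were higher in GFP-high cells. Emx2 was 6.37-fold higher (adjusted p = 0.00157), Dmrta2 6.35-fold (adjusted p = 0.0182) and Lhx2 3.11-fold (1.64 ± 0.21, adjusted p = 0.00313). Emx1 stood apart: 1441777_at was at 0.43 ± 0.22 (adjusted p = 0.292, groups overlapping) and 1444216_at 2.35-fold higher (1.23 ± 0.26, adjusted p = 0.0244).

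Nr2f1 was at 0.69 ± 0.26 (adjusted p = 0.144) and all 6 Nr2f2 probe sets were at negative values, −0.95 to −0.13, with adjusted p of 0.0666 to 0.766. Some of these calls rest on few arrays. The Dmrta2 call ended without GFP-high replicate 2 (2.37, adjusted p = 0.07) or 3 (2.74, 0.0585) or GFP-low replicate 1 (2.51, 0.0708). That of Nr2e1 1457289_at (2.81 ± 0.52, adjusted p = 0.0138) ended without GFP-high replicate 1 (2.76, 0.0534) or 3 (2.77, 0.0536). The Emx1 1444216_at call ended in 5 of 6 runs that left out an array, GFP-low replicate 1 excepted, at 1.03 to 1.35 (adjusted p = 0.0539 to 0.0928), and Nr2f1 was called only without GFP-low replicate 3 (0.93, adjusted p = 0.0397). Within the 5 arrays of the Affymetrix kit, which leaves out GFP-high replicate 1, 9 of 21 were called (6.7% of all), with Pax6 1419271_at at 3.13, Emx2 at 2.48 and Nr2e1 1434921_at at 3.04. In the same contrast all 9 radial glia genes, Pax6 among them, were called higher in GFP-high cells and all 9 neuron genes lower, and the part of this in the members' values was not tested.

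Whether the GFP contrast differs between gated and ungated cells was itself tested, over all 17 arrays. The sort, the RNA controls and mostly the kit differ together between these cells, and the part of the RNA controls was not tested. The gated contrast minus the ungated one was called in 10 of 21 probe sets of 6 genes, all lower, where 4.87% of all were called, 2.39% lower and 2.48% higher. Emx2 was at −2.30 ± 0.33 (adjusted p = 0.000861), Pax6 1419271_at at −2.22 ± 0.34 (adjusted p = 0.00113) and Nr2e1 1434921_at at −2.16 ± 0.29 (adjusted p = 0.00061). Sall1 1450489_at was at −2.11 ± 0.40 (adjusted p = 0.00451). For 2 of the 10 the gated levels were too low to show a GFP contrast, so that the difference mostly restates the ungated one. Pax6 1425960_s_at (−2.13 ± 0.25, adjusted p = 0.000231) averaged 4.22 and 4.14 in the gated groups, near the floor of 4 that the added 16 sets on the log2 scale. Emx1 1444216_at (−1.53 ± 0.40, adjusted p = 0.0368) averaged 4.48 and 4.78. Pax6 1452526_a_at was at −1.90 ± 0.43 (adjusted p = 0.0148), with gated averages of 5.47 and 4.49, also under the median of all probe sets. Its gated GFP-low replicates 2 and 3 read 4.24 and 4.22, close to that floor, which limits this value as well. Lhx2 was at −1.15 ± 0.33 (adjusted p = 0.0532), Emx1 1441777_at at 0.02 ± 0.50 (adjusted p = 0.994) and Nr2f1 at −0.55 ± 0.33 (adjusted p = 0.462).

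Weaker calls in the difference of contrasts were those of Dmrta2 (−1.90 ± 0.51, adjusted p = 0.0396), Nr2e1 1457289_at (−2.03 ± 0.51, adjusted p = 0.028) and Sall1 1437983_at (−2.30 ± 0.55, adjusted p = 0.0203). The Dmrta2 call ended in 10 of 13 runs that left out 1 array, at −1.97 to −1.47 (adjusted p = 0.0544 to 0.101), all but those without gated GFP-low replicate 2, ungated GFP-high replicate 1 or ungated GFP-low replicate 3. That of Emx1 1444216_at ended in 8 of 13, at −1.56 to −1.21 (adjusted p = 0.0513 to 0.1), all but gated GFP-high replicate 4, gated GFP-low replicates 1 and 3, ungated GFP-high replicate 2 and ungated GFP-low replicate 1. The Nr2e1 1457289_at call ended without gated GFP-high replicate 1, gated GFP-low replicate 3 or ungated GFP-high replicate 1 or 3 (−1.99 to −1.90, adjusted p = 0.0514 to 0.0723), and that of Sall1 1437983_at without gated GFP-low replicate 1 (−2.15, 0.0564) or ungated GFP-high replicate 1 (−2.18, 0.054). With the labelling kit as a term 7 of the 10 calls held (3.61% of all were called), and Emx1 1444216_at (−1.53, adjusted p = 0.0723), Nr2e1 1457289_at (−1.98, 0.0628) and Sall1 1437983_at (−2.18, 0.054) did not pass. Lhx2 was called without gated GFP-high replicate 4 (−1.30, 0.0283) or ungated GFP-low replicate 3 (−1.26, 0.0413). Among 9 postmitotic neuron genes, 8 were called higher in this difference, and their part in the members' values was not tested.

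The gated and ungated groups were then compared at the same GFP level, where the sort, the RNA controls and mostly the kit differ together and cannot be told apart. In GFP-high cells 12 of 21 probe sets of 8 genes were called, 11 lower and 1 higher with the gate, where 21.7% of all were called (11% lower, 10.7% higher). The largest falls were in Pax6 1452526_a_at, by 3.83 ± 0.29 on the log2 scale (adjusted p = 4.19e-07), and Emx1 1444216_at, by 3.79 ± 0.28 (adjusted p = 3e-07), while Pax6 1419271_at was 2.03-fold lower (adjusted p = 0.00402) and Emx1 1441777_at at 0.62 ± 0.34 (adjusted p = 0.228). Pax6 1425960_s_at averaged 4.22 with the gate and 6.81 without it on the log2 scale (adjusted p = 1.27e-07). Sall1 1450489_at was 3.95-fold lower (adjusted p = 6.93e-05), Sall1 1437983_at 3.65-fold (adjusted p = 0.00162), Nr2e1 1434921_at 3.32-fold (adjusted p = 1.35e-05), Nr2f1 2.40-fold (adjusted p = 0.000683) and Emx2 2.28-fold (adjusted p = 0.00114). Dmrta2 was at 0.15 ± 0.35 (adjusted p = 0.826). With the gate, 5 of 9 radial glia genes were called lower, 6 of 9 neuron genes higher and 7 of 10 interneuron and subpallium genes higher, and their part in the members' values was not tested.

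Within the MessageAmp kit, against ungated replicate 1 alone, whose spread is taken from the other groups, 8 of the 12 calls held (12.2% of all called). There Pax6 1452526_a_at was at −3.93 (adjusted p = 0.000407) and Emx1 1444216_at at −3.79 (adjusted p = 0.000352), whereas Pax6 1419271_at was at −0.90 (adjusted p = 0.0523) and Lhx2 at −0.98 (adjusted p = 0.0851). The Lhx2 call (1.80-fold lower, adjusted p = 0.0114) also ended without ungated replicate 1 (−0.78, adjusted p = 0.0505). Nr2f2 moved both ways, 1416159_at up by 0.59 (adjusted p = 0.0332) and 1416158_at at −0.82 (adjusted p = 0.0132). The first call ended without any of 6 of the 7 arrays, gated replicate 3 excepted (0.50 to 0.64, adjusted p = 0.05 to 0.102), and the second without ungated replicate 2 (−0.72, adjusted p = 0.0572).

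In GFP-low cells 7 of 21 probe sets were called, 4 higher and 3 lower with the gate, where 19.6% of all were called (9.61% higher, 9.98% lower). Here the Pax6 probe sets were called in opposite directions: 1419271_at was 2.29-fold higher (1.20 ± 0.25, adjusted p = 0.00253) and 1452526_a_at lower by 1.93 ± 0.32 (adjusted p = 0.000444). Dmrta2 was 4.12-fold higher (adjusted p = 0.00101), Nr2e1 1457289_at higher by 2.02 ± 0.37 (adjusted p = 0.00115) and Emx2 2.17-fold higher (adjusted p = 0.0037). On ungated GFP-low replicate 2, Nr2e1 1457289_at read 4.22, near the floor of 4. The leading Nr2e1 probe set, 1434921_at, was at 0.43 ± 0.21 (adjusted p = 0.185), with overlap. Emx1 1444216_at was lower by 2.26 ± 0.30 (adjusted p = 7.19e-05) and Nr2f1 1.65-fold lower (adjusted p = 0.0464). That Emx1 probe set averaged 4.78 with the gate, near the floor of 4. The brighter Emx1 probe set, 1441777_at, went the other way, at 0.60 ± 0.37 (adjusted p = 0.282). The Nr2f1 call ended without gated replicate 2 or 3 or ungated replicate 1 or 3 (−0.80 to −0.48, adjusted p = 0.0658 to 0.183), and Pax6 1425960_s_at (−0.47, adjusted p = 0.0832) was called without ungated replicate 2 (−0.65, adjusted p = 0.0217). Nr2f2 1444229_at (−0.74, adjusted p = 0.0503) was called without ungated replicate 1 (−0.93, adjusted p = 0.0304) or 3 (−0.88, adjusted p = 0.0348).

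No kit holds both GFP-low groups, so the kit could be set apart only by a term estimated from the ungated GFP-high arrays. With that term 2 of the 7 calls held (2.5% of all were called), Emx1 1444216_at at −2.27 (adjusted p = 0.0408) and Dmrta2 at 2.72 (adjusted p = 0.0412). The brighter Emx1 probe set, 1441777_at, was at 0.20 (adjusted p = 0.905). Pax6 1419271_at was then at 1.38 (adjusted p = 0.113), Pax6 1452526_a_at at −2.09 (adjusted p = 0.0679) and Emx2 at 0.54 (adjusted p = 0.533). Nr2e1 1457289_at was at 1.88 (adjusted p = 0.152) and Nr2f1 at −0.69 (adjusted p = 0.448). Neuron genes were lower in the gated GFP-low cells, 6 of 9 called. Called higher were 4 of 9 radial glia genes, 5 of 7 basal progenitor genes (1 lower), 7 of 8 Cajal-Retzius genes and 5 of 10 interneuron and subpallium genes. Their part in the members' values was not tested.

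Age was compared among Prominin-selected cells, where age, the GFP sort (GFP-positive at E18) and the RNA controls differ together and cannot be told apart. The signal of the 18S 3′ control was 569 to 910 at E18. It was 2110 to 6147 in gated E14 GFP-high cells and 2273 to 2894 in gated GFP-low cells. The members split in direction: Pax6, Emx1, Emx2, Nr2e1, Dmrta2 and Sall1 each had a probe set lower at E18 than in E14 GFP-high cells, and the COUP-TF genes Nr2f1 and Nr2f2 had higher ones. In all 10 of 21 probe sets were called, 7 lower and 3 higher, where 23.3% of all were called (13.5% lower, 9.84% higher). Nr2e1 1434921_at fell by 2.58 ± 0.18 on the log2 scale (adjusted p = 1.91e-06), Emx1 1441777_at was 4.97-fold lower (−2.31 ± 0.35, adjusted p = 0.000455), Dmrta2 3.49-fold (−1.80 ± 0.16, adjusted p = 1e-05) and Pax6 1419271_at 3.18-fold (−1.67 ± 0.17, adjusted p = 3.24e-05). The second Nr2e1 probe set, 1457289_at, fell by 2.87 ± 0.18 (adjusted p = 1.14e-06). Emx2 was 1.77-fold lower (adjusted p = 0.00609), and Sall1 1450489_at fell by 0.83 (adjusted p = 0.01) while Sall1 1437983_at was at −0.78 ± 0.27 (adjusted p = 0.0527). Lhx2 was at −0.28 ± 0.22 (adjusted p = 0.428), with overlap. In the other direction, Nr2f1 was 1.75-fold higher at E18 (0.80 ± 0.20, adjusted p = 0.0107), and so were Nr2f2 1436475_at (1.66-fold, adjusted p = 0.00798) and Nr2f2 1416158_at (0.66, adjusted p = 0.0409). Pax6 1452526_a_at, under the median level in both groups, was at 0.16 ± 0.28 (adjusted p = 0.763).

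Single arrays mattered for a few of these. The Nr2f2 1416158_at call ended without E14 replicate 1, 2 or 4 or E18 replicate 3, 4 or 5 (0.54 to 0.66, adjusted p = 0.0748 to 0.111). Sall1 1437983_at was called without E14 replicate 1 (−0.99, adjusted p = 0.0167) or E18 replicate 5 (−0.97, adjusted p = 0.0221), Lhx2 without E14 replicate 1 (−0.51, adjusted p = 0.0397) and Nr2f2 1416160_at (0.65, adjusted p = 0.0773) without E18 replicate 3 (0.91, adjusted p = 0.00326). Without quantile normalization the median difference of all probe sets was 0.06 in place of −0.05 in this comparison, and 0 of the 10 calls changed direction.

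Against E14 GFP-low cells the E18 cells had 7 of 21 probe sets called, 5 lower and 2 higher, where 16.2% of all were called (9.47% lower, 6.75% higher). This comparison shares the E18 arrays with the one above. Emx1 1441777_at was 3.64-fold lower (adjusted p = 0.00554), Nr2e1 1434921_at 3.14-fold (adjusted p = 0.000165), Dmrta2 2.05-fold (adjusted p = 0.00177) and Pax6 1419271_at 1.76-fold (adjusted p = 0.0111). Nr2e1 1457289_at fell by 2.09 ± 0.19 on the log2 scale (adjusted p = 3.82e-05). Nr2f1 was 1.93-fold higher (adjusted p = 0.0101). Pax6 1452526_a_at was called higher by 1.14 ± 0.30 (adjusted p = 0.0226) with both groups under the median level, a call that ended without GFP-low replicate 2 or 3 or E18 replicate 2 or 4 (1.00 to 1.13, adjusted p = 0.0528 to 0.0873). Emx2 was at −0.46 ± 0.20 (adjusted p = 0.152), Lhx2 at 0.21 ± 0.24 (adjusted p = 0.624) and the 2 Sall1 probe sets at 0.03 and −0.06. No Nr2f2 probe set was called here. Those called higher against GFP-high cells were at 0.36 (1436475_at, adjusted p = 0.226) and 0.05 (1416158_at, adjusted p = 0.925). The others were at −0.05 (1416159_at), −0.24 (1416160_at), 0.44 (1444229_at) and 0.39 (1431237_at).

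Other cells' markers also differed between the E18 and E14 groups. The summed signal of 10 genes of interneurons and the subpallium was 3039 to 3438 at E18 against 295.4 to 611.7 in E14 GFP-high and 456.1 to 763.4 in GFP-low cells, with 8 of 10 called higher in both comparisons. Neuron genes summed to 19650 to 22450 at E18, with 8 of 9 called higher than in E14 GFP-high cells, and 3 of 9 higher and 2 lower than in GFP-low cells. Of 5 oligodendrocyte lineage genes 3 were called higher in both comparisons. Basal progenitor genes were called lower, 5 of 7 against GFP-high and 4 of 7 against GFP-low cells. Of 8 Cajal-Retzius genes, 3 were called higher and 2 lower than in GFP-high cells, and 6 lower than in GFP-low cells. The radial glia list had 2 genes called higher and 6 lower of 9 against GFP-high cells, Pax6 being one of the latter, and 2 higher and 4 lower against GFP-low cells. The part of these cells in the members' values was not tested.

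**Figure D4:**
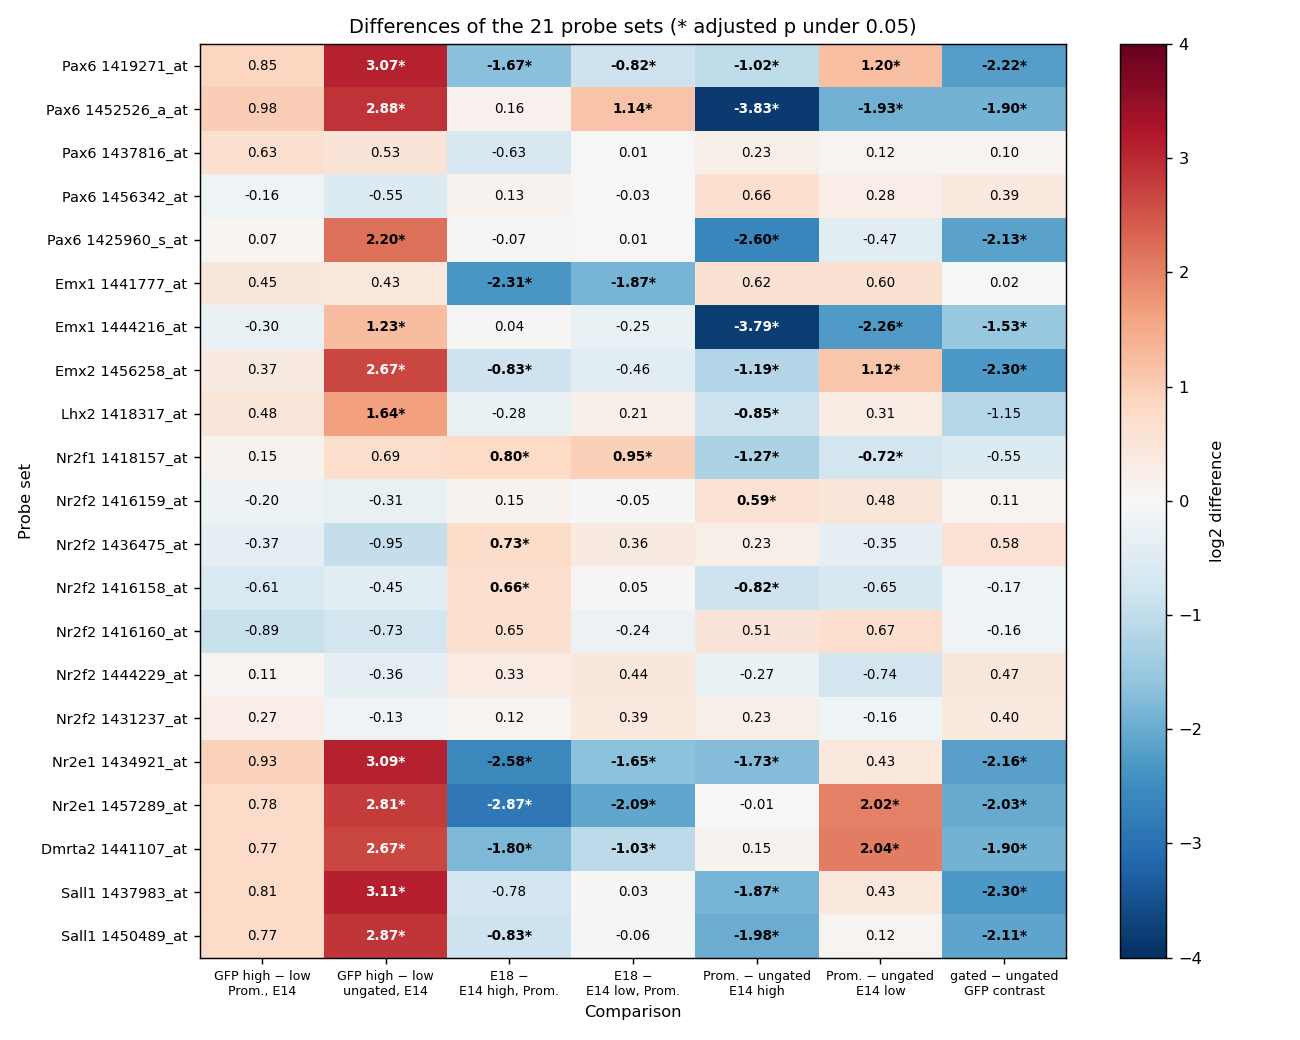
The log2 difference of each of the 21 probe sets (vertical axis) is given by colour and number in the 7 comparisons (horizontal axis), with an asterisk where the limma adjusted p is under 0.05. The first comparison has 0 asterisks and the second 11, all positive, and Pax6 1419271_at and 1452526_a_at have opposite signs in both age comparisons and in the gate comparison of GFP-low cells.

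Genes beside the 9 in the same network were read from 2 lists, with 1 probe set a gene. Of 24 measured telencephalic patterning factors, 0 were called in the gated GFP contrast and 12 in the ungated one, 9 higher and 3 lower in GFP-high cells (0.592% of all probe sets were called in the first, 5.66% higher and 6% lower in the second). Gli3, the transcription factor of hedgehog signalling that patterns the dorsal telencephalon, was 6.88-fold higher (adjusted p = 0.00163). Bcl11b and Fezf2, factors of deep-layer neurons, were 6.01-fold (adjusted p = 0.00106) and 3.44-fold lower (adjusted p = 0.00181). The median difference of the list was 0.81, against 0.0025 over all probe sets.

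At E18, 12 of these 24 factors were called lower and 3 higher than in E14 GFP-high cells, and 11 lower and 2 higher than in GFP-low cells. Of all probe sets 13.5% were called lower and 9.84% higher in the first comparison, and 9.47% and 6.75% in the second. Fezf2 was 12.0-fold lower than in GFP-high cells (adjusted p = 9.76e-06) and 14.7-fold lower than in GFP-low cells (adjusted p = 3.1e-05), and Gli3 4.18-fold lower than in GFP-high cells (adjusted p = 9.36e-06). Dmrt3, a DM-domain relative of Dmrta2, fell by 2.61 on the log2 scale from GFP-high cells (adjusted p = 3.11e-06) to 5.33, under the median level. With the gate, 4 factors were called higher and 6 lower among GFP-high cells (10.7% and 11% of all). Among GFP-low cells 7 were higher and 0 lower (9.61% and 9.98% of all), including Zic1 at 3.08-fold (adjusted p = 0.000221), Dmrt3 and Gli3. In the difference of the GFP contrasts 2 were called higher and 6 lower (2.48% and 2.39% of all), Gli3 at −2.05 ± 0.34 (adjusted p = 0.00172).

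The second list holds 15 genes that Pax6 is known to act on in cortex. In the gated GFP contrast 0 were called (0.592% of all probe sets), and in the ungated one 10 were higher and 1 lower (5.66% and 6% of all). Hes1, an effector of Notch signalling, was 4.93-fold higher (adjusted p = 0.000978), Tfap2c, a factor of basal progenitors, 5.63-fold (adjusted p = 0.00154) and Eomes (Tbr2), the defining factor of basal progenitors, 4.99-fold (adjusted p = 0.00169). At E18, 9 were called lower and 1 higher than in E14 GFP-high cells (13.5% and 9.84% of all): Eomes was 4.79-fold lower (adjusted p = 2.56e-06) and Tfap2c 7.03-fold (adjusted p = 9.06e-06), whereas Fabp7, a fatty acid binding protein of radial glia, was the 1 higher. Against GFP-low cells 8 were lower and 1, again Fabp7 (3.36-fold, adjusted p = 0.000116), higher (9.47% and 6.75% of all). With the gate 2 were higher and 7 lower among GFP-high cells (10.7% and 11% of all), and 7 higher and 0 lower among GFP-low cells (9.61% and 9.98%). In the difference of the GFP contrasts 1 was higher and 9 lower (2.48% and 2.39%).

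Genes whose means over the 5 groups ran most like each member's were found among 9970 genes above the median level, by the root mean square difference of the centred means, which describes 5 points and was not tested. Pax6 1419271_at was nearest to Cdt1 (0.109), Birc5 (0.118) and Top2a (0.134), genes of DNA licensing, of the chromosomal passenger complex and of DNA topology, against a median of 1.14 over all. Sall1 was nearest to Cdk1 (0.152), Kif20a (0.192) and Uhrf1 (0.196), and Dmrta2 to Cks2 (0.0413), Cdca8 (0.0766) and Sox6 (0.102). Emx2 was nearest to Cenph (0.121), Nes (0.133) and Cdca7 (0.140), and Lhx2 to Trim59 (0.06), Pkmyt1 (0.076) and Prps2 (0.0878). Nr2e1 was nearest to Megf10 (0.209), Sox3 (0.223) and Gas1 (0.286), the widest distances of the 9. Emx1 1441777_at was nearest to Raly (0.103), Zfp423 (0.141) and Slc2a13 (0.17), Nr2f1 to Tctex1d2 (0.0806), Spcs3 (0.0872) and Snx2 (0.0961), and Nr2f2 1416159_at, which varied little, to Fryl (0.0209), Fkbp1a (0.0432) and Coprs (0.044).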

How the data were processed

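Per the labels, biotin-labelled RNA of sorted cells was hybridised to Affymetrix mouse arrays. The deposited values were linear intensities for 45101 probe sets, 0.0397 to 59926, with a trimmed mean of 150.0 on every array. The authors' software and scaling: not given in the sources used here. Array medians were 24.2 to 45.1, and 0 pairs of arrays were identical. Leaving out 64 control probe sets, 16 was added, log2 taken and quantile normalisation applied. limma 3.58.1 in R 4.3.3 (lmFit, eBayes) was fitted to the 34945 probe sets that GEO's platform annotation gives 1 symbol (932 had several and 9160 none listed), with Benjamini-Hochberg adjustment over all of them, and was tested on simulated data. The gated GFP contrast and both age comparisons used the 11 Prominin-selected arrays, the ungated contrast 6 arrays, and the gate comparisons and the difference of GFP contrasts all 17, so comparisons share samples. All 9 Entrez identifiers matched the RefSeq table. All member probe sets were counted, those of Pax6 described singly and those of the other genes mainly by the one with the highest mean. Lists of related genes used 1 probe set a gene, and up to 3 genes with the lowest p among those called were named per comparison. Fabp7 in the comparison with E14 GFP-high cells was named after its value was seen. For likeness, the 3 nearest genes above the median level were named. The members and lists were chosen with earlier results of these data known. Same-numbered samples were checked for pairing: the deviations from the group means of 27 such pairs correlated at −0.170 to 0.055, so they were not treated as pairs. Alternatives were no quantile normalisation, 1 or 64 in place of 16, leaving out the dimmest 40% of probe sets, 1 probe set a gene (that with the highest mean), all non-control probe sets, other arrays in the fit, a trended and robust variance, the replicate number as a block, the labelling kit, and each array left out. Figures were drawn with matplotlib 3.10.9 in Python 3.11.15.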

Additional observations from a re-analysis of the deposited data

Results flagged for a closer look

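Dixon's criterion was applied to each of the 21 probe sets in gated E14 GFP-high cells and at E18, the groups with 4 arrays. In 5 of these 42 sets of 4 values the highest or lowest array stood apart from the rest. Chance alone meets the criterion in about 1 independent set in 20. These sets share arrays and genes, so the count cannot be held against that rate. Emx1 1441777_at was 9.88 in gated E14 GFP-high replicate 1, against 9.5 on the nearest array. Emx1 1444216_at was 5.21 in E18 replicate 2. Of the Nr2f2 probe sets, 1436475_at was 6.42 in gated E14 GFP-high replicate 3, and 1431237_at was 5.1 in gated E14 GFP-high replicate 2 and 4.23 in E18 replicate 2.

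The GFP contrast differed between gated and ungated E14 cells, by limma's test of the difference itself, in 10 probe sets. The gated contrast minus the ungated one was −2.22 for Pax6 1419271_at, −1.9 for Pax6 1452526_a_at and −2.13 for Pax6 1425960_s_at. It was −1.53 for Emx1 1444216_at, −2.3 for Emx2, −2.16 for Nr2e1 1434921_at and −2.03 for Nr2e1 1457289_at. It was −1.9 for Dmrta2, −2.3 for Sall1 1437983_at and −2.11 for Sall1 1450489_at. For Pax6 1425960_s_at and Emx1 1444216_at the gated levels were too low to show a GFP contrast, so these values mostly restate the ungated one. The value of Pax6 1452526_a_at is limited by its low gated GFP-low mean, 4.49.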

How the results depend on the processing

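Of 147 values (21 probe sets in 7 comparisons), 57 were called, of which 33 stayed called under every alternative run and 24 lost the call in at least 1. Of the 90 not called, 13 were called in at least 1, and 0 of the called values changed sign. In the gated GFP contrast, 0 member probe sets were called (0.592% of all tested). Without quantile normalisation 1 was (0.501%), with 64 added in place of 16, 4 (1.59%), and without the dimmest 40%, 3 (2.11%). With 1 probe set a gene 3 were called (1.68%), with all 17 arrays 1 (0.67%) and with the trended, robust variance 3 (1.45%). With 1 probe set a gene, which leaves 9 member probe sets, the count was 6 in the ungated GFP contrast (15.8% of all tested). It was 7 and 4 in the gate comparisons of GFP-high and GFP-low cells (20.7% and 19.2%). In the difference of GFP contrasts it was 6, with the share of all in that run not given here (4.87% in the main fit). The kit as a term left 2 in the gate comparison of GFP-low cells (2.5% of all). With 1 added in place of 16 the difference of GFP contrasts had 4 (3.44% of all). Leaving out 1 array in turn gave 0 to 0 in the gated GFP contrast, 8 to 11 in the ungated one, 9 to 11 and 6 to 7 in the age comparisons with GFP-high and GFP-low cells, 10 to 12 and 6 to 8 in the gate comparisons, and 7 to 10 in the difference of GFP contrasts. Of all 34945 the share called was 0.0315% to 0.581% in the gated and 6.69% to 11.1% in the ungated GFP contrast. It was 19% to 22.4% and 11.5% to 15.8% in the age comparisons, and 16.1% to 19.7% and 13.9% to 21.3% in the gate comparisons. For the difference of GFP contrasts the shares in these runs are not given here (4.87% in the main fit). With the replicate number as a block, although the numbers did not pair the samples, the counts were 0, 11, 8, 5, 12, 6 and 8 in that order. Of all probe sets 0%, 7.04%, 14.5%, 5.92%, 18.6% and 16.5% were called there, the difference of GFP contrasts left out. Over all 34945 probe sets the gated GFP contrast called 207, and 557 with 64 added, 70 with 1 added and 0 with the block. Where no fit within 1 kit was possible (the gate comparison of GFP-low cells and the difference of GFP contrasts), none was run. The causes of these changes were not tested, and signal over background limits the probe sets under the median level of 5.85.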
